A study of Mus musculus with 2 samples.

Results

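Immediate-early genes are switched on within minutes of a signal without new protein synthesis, and heat shock genes encode chaperones that hold, fold and disaggregate proteins. Levels of 38 of them, 26 immediate-early genes and 12 heat shock genes, were followed through 19 cell classes of the mouse lung; they were picked by symbol out of the 27998 genes in the count tables, of which 19909 had at least 1 UMI (a unique molecular identifier, which counts a captured RNA molecule once). The series holds 2 single-cell libraries made with droplet 3′ RNA sequencing, a library labelled control and a library labelled fibrosis, each from 1 male C57Bl/6J mouse aged 3 months. Lungs were taken 14 days after 100 µg of either titanium dioxide or crocidolite asbestos had been instilled through the trachea; the labels name both particles for both mice, so the libraries are called here only control and fibrosis. With 1 library per group no difference could be tested, and every interval below covers counting error only, not the spread between mice. The lungs were digested with dispase and DNase I at room temperature and then teased apart, a procedure that both libraries share, and no undigested tissue is among the samples analysed here.

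Many immediate-early genes encode transcription factors, such as the FOS and JUN subunits of AP-1 and the EGR zinc-finger proteins. Others encode inhibitors that end the signal, such as the DUSP phosphatases, the mRNA-destabilising protein Zfp36 and the NF-κB inhibitor Nfkbia. Heat shock genes are driven by heat shock factor 1, which binds repeats of the letters nGAAn, whereas Hspa5 in the endoplasmic reticulum answers mainly to unfolded proteins there. Both programmes are known to be induced when solid tissue is digested into single cells, which makes them a common gauge of handling as well as of activation.

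The control library held 8280 cells and 36632591 UMIs and the fibrosis library 7173 cells and 38090308 UMIs. After removal of cells with over 10% mitochondrial UMIs and of likely doublets, 7510 and 6559 cells were kept, with a median of 3691 and 4238 UMIs, and 89 cell barcodes occurred in both libraries. Of the kept cells, 6991 control and 5651 fibrosis cells fell in the 19 classes, which were clustered without the 38 genes and named "-like" from marker genes. Every marker of a class was detected in it in both libraries, except 1 of 8 type 2 dendritic cell markers in control. The same markers had named the clusters and gated the cells, so their detection is no separate check of the names. Detection alone does not set classes apart either: all 9 AT2 markers were also found in B cell-like and T cell-like cells. Levels are UMIs of a gene scaled to a class total of 1000000 (CPM); because each transcript is counted at its 3′ end, they need no scaling by length and can be compared between genes. They are averages over a class, in which fewer expressing cells and less RNA per cell cannot be told apart. The neutrophil-like class was very uneven between the libraries, with 644 control and 48 fibrosis cells.

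Over all kept cells the 26 immediate-early genes took 0.326% of control and 0.241% of fibrosis UMIs, and the 12 heat shock genes 0.421% and 0.348%. The spread between cell classes was far wider than the difference between the libraries. Summed immediate-early genes were highest in neutrophil-like cells, at 8583 CPM (95% interval 8424 to 8745) in control and 6034 CPM (5586 to 6509) in fibrosis. Endothelial-like cells followed with 5550 and 4586 CPM, then B cell-like cells with 5054 and 4163 CPM and AT1-like cells (the thin gas-exchange epithelium) with 4805 and 3667 CPM, the last behind fibroblast-like cells (3760 CPM) in fibrosis. The intervals of B cell-like and AT1-like cells overlapped in the control library, so these neighbours were not separated there. The gene Btg1 alone gave 2134 and 1443 CPM of the B cell-like sum and 2098 and 1441 CPM of the neutrophil-like sum. The class order of the sum without Btg1 was not examined. T cell-like, fibroblast-like, NK cell-like, monocyte-like and interstitial macrophage-like cells lay close together, between 3514 and 3893 CPM in control and between 3185 and 3760 CPM in fibrosis. The secretory and ciliated epithelium stood at the bottom: ciliated-like cells had 1336 and 1381 CPM, AT2-like cells (the surfactant-producing epithelium) 1196 and 1260 CPM, and club-like cells (airway secretory cells) 851 and 1075 CPM.

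Heat shock genes followed a different order. Ciliated-like cells, a class that proved to hold 2 kinds of cells, were highest, at 7433 CPM (7311 to 7556) in control and 5488 CPM (5395 to 5582) in fibrosis, followed by mesothelial-like cells with 6837 and 5124 CPM. With at most 5% mitochondrial UMIs per cell mesothelial-like cells led in both libraries, at 6879 and 5196 CPM. Proliferating cells had 6286 and 4824 CPM and AT1-like cells 6176 and 4329 CPM. Neutrophil-like cells, at the top for immediate-early genes, were lowest here, with 797 CPM (749 to 848) and 712 CPM (563 to 887). Over the 19 classes the rank correlation of the 2 sums was -0.18 in control and -0.16 in fibrosis, whereas each sum kept its class order between libraries, with a rank correlation of 0.98 for immediate-early and 0.97 for heat shock genes. Classes of a library share its preparation and depth, so these correlations are descriptions. The immediate-early sum was lower where cells held more UMIs, with a rank correlation to the median UMIs per class of -0.89 in control and -0.85 in fibrosis; the part of RNA content in the class order was not tested.

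**Figure D1:**
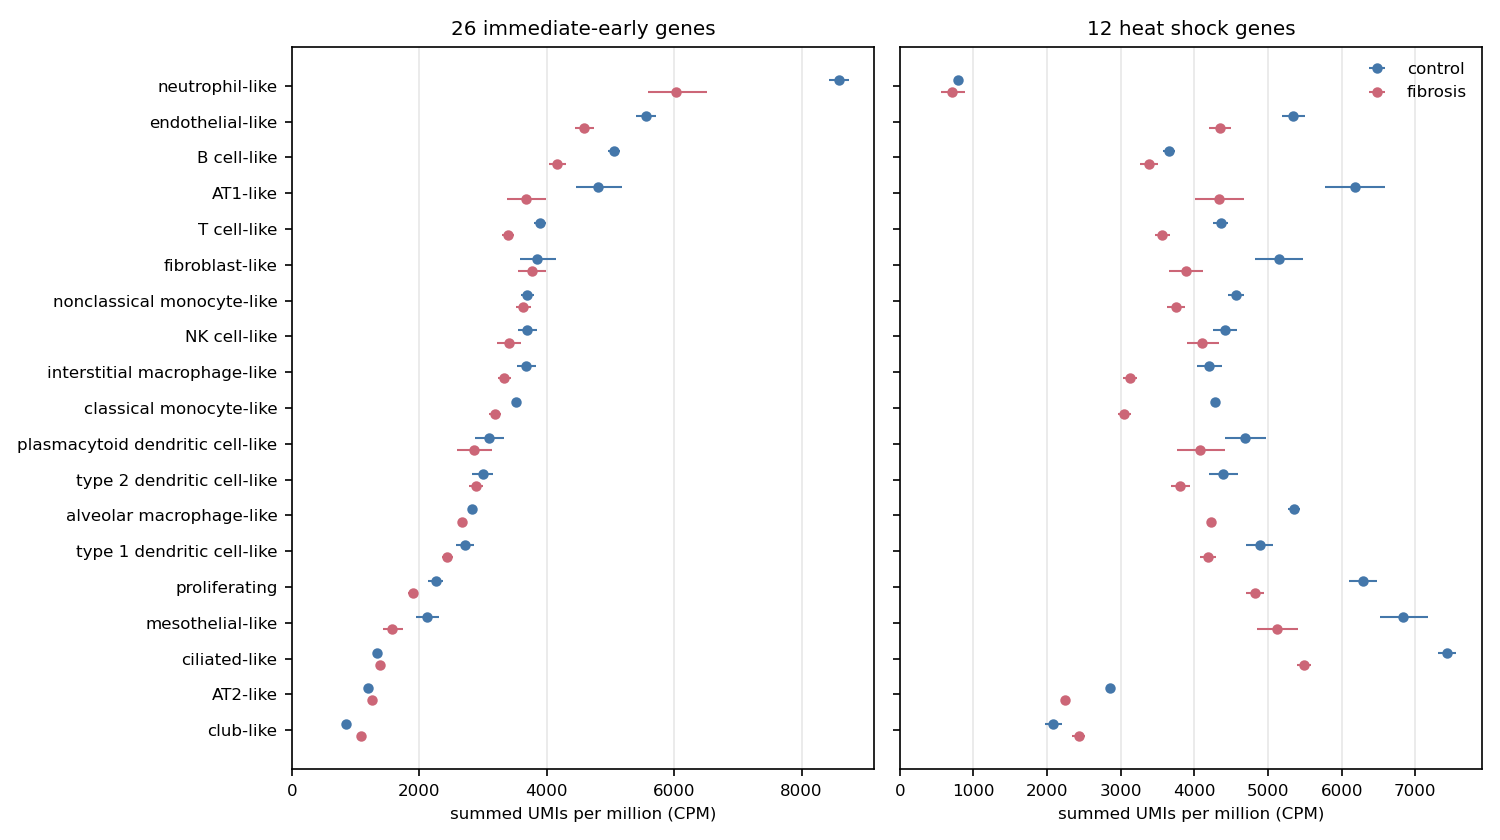
Summed CPM of the 26 immediate-early genes and of the 12 heat shock genes by cell class, with points for the control and fibrosis libraries and bars for exact Poisson 95% intervals (counting error only). Neutrophil-like cells lead the immediate-early sum at 8583 and 6034 CPM and close the heat shock sum at 797 and 712 CPM, and ciliated-like cells lead the heat shock sum at 7433 and 5488 CPM.

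Cells of a class also differed from each other. With each cell thinned to 1000 UMIs, a neutrophil-like cell of the control library held a median of 9 immediate-early UMIs, with the 10th and 90th percentiles at 4.3 and 14.7, against 5.5 (2 to 11) in fibrosis. Only 0.311% of the control neutrophil-like cells held none. In AT2-like cells the median was 1 UMI in both libraries, and 32.9% of control and 30.7% of fibrosis cells held none. For heat shock genes ciliated-like cells held a median of 9 UMIs (3 to 21) in control and 6 (2 to 14) in fibrosis, and 47.4% and 52.1% of neutrophil-like cells held none.

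Both sums were lower in the fibrosis library in most classes. The immediate-early sum was lower in 16 of 19 classes, with the counting interval of the log2 ratio of fibrosis to control below 0 in 12 of them, and the median log2 ratio was -0.14. The heat shock sum was lower in 18 of 19 classes, below 0 by its interval in 17, with a median log2 ratio of -0.30. The same median taken over all compared genes of each class had its middle value at -0.02. Most of the heat shock sum came from 2 constitutive genes, Hspa8 and Hsp90ab1. They held 43644 and 37793 of the 127564 heat shock UMIs of the control classes. In the fibrosis classes they held 25606 and 32415 of 104345. The largest deficits of the immediate-early sum were in neutrophil-like (log2 ratio -0.51), mesothelial-like (-0.43) and AT1-like cells (-0.39). Those of the heat shock sum were in AT1-like (-0.51), classical monocyte-like (-0.49) and ciliated-like cells (-0.44). Control cells held at least 1460 UMIs and fibrosis cells at least 1915, while the control neutrophil-like median was 1813. With 1915 UMIs as the floor for both, the control neutrophil-like immediate-early sum was 7784 CPM in place of 8583 CPM. The fibrosis value stayed at 6034 CPM, so this deficit was smaller at the shared floor, and its rank among the classes there is not given. The immediate-early sum was higher in fibrosis in club-like (0.34), AT2-like (0.075) and ciliated-like cells (0.05, interval -0.03 to 0.12), and the heat shock sum in club-like cells alone (0.22). Taken relative to the median log2 ratio of all genes in the class, the club-like values were -0.10 and -0.21 and the ciliated-like immediate-early value was -0.09, while the nonclassical monocyte-like immediate-early and the neutrophil-like heat shock values became 0.008 and 0.007; these directions turned with the scaling. The rank correlation over 19 classes between the log2 ratio and the difference in median mitochondrial percentage was 0 for immediate-early and 0.06 for heat shock genes. AT1-like cells rested on 29 control and 33 fibrosis cells, and their summed AT2 markers, all 9 detected in both, stood at 24484 CPM in control and 4522 CPM in fibrosis, beside 38583 and 35656 CPM for their own 9 markers; the part of this in the AT1-like deficits was not tested.

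A gene and class were compared singly where both libraries together held at least 30 UMIs, which left 521 of the 722 pairs of a listed gene and a class, and a pair was counted as changed when the CPM differed at least 2-fold. In the fibrosis library 18 pairs were higher (3.45%) and 19 lower (3.65%), beside 3.72% higher and 2.44% lower among the 104248 pairs of all genes. The share changed was thus near that of all genes. Direction showed more: 58.5% of the 521 pairs were on the lower side against 49.7% over all genes, with median log2 ratios of -0.11 and 0.003. Heat shock genes were on the lower side in 118 of 179 pairs (65.9%) and immediate-early genes in 187 of 342 (54.7%). Single genes often kept 1 direction over the classes: of the 799 genes compared in all 19, 12.8% were higher and 9.14% lower in at least 16. Where a count of classes on 1 side is given below for a gene without such a share, the share over all genes was not computed. The interval of the ratio left out 0 in 15 of the 18 higher and 18 of the 19 lower pairs, but 7 and 8 of them came within 2-fold once the cell with the most UMIs of the gene was left out.

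**Figure D2:**
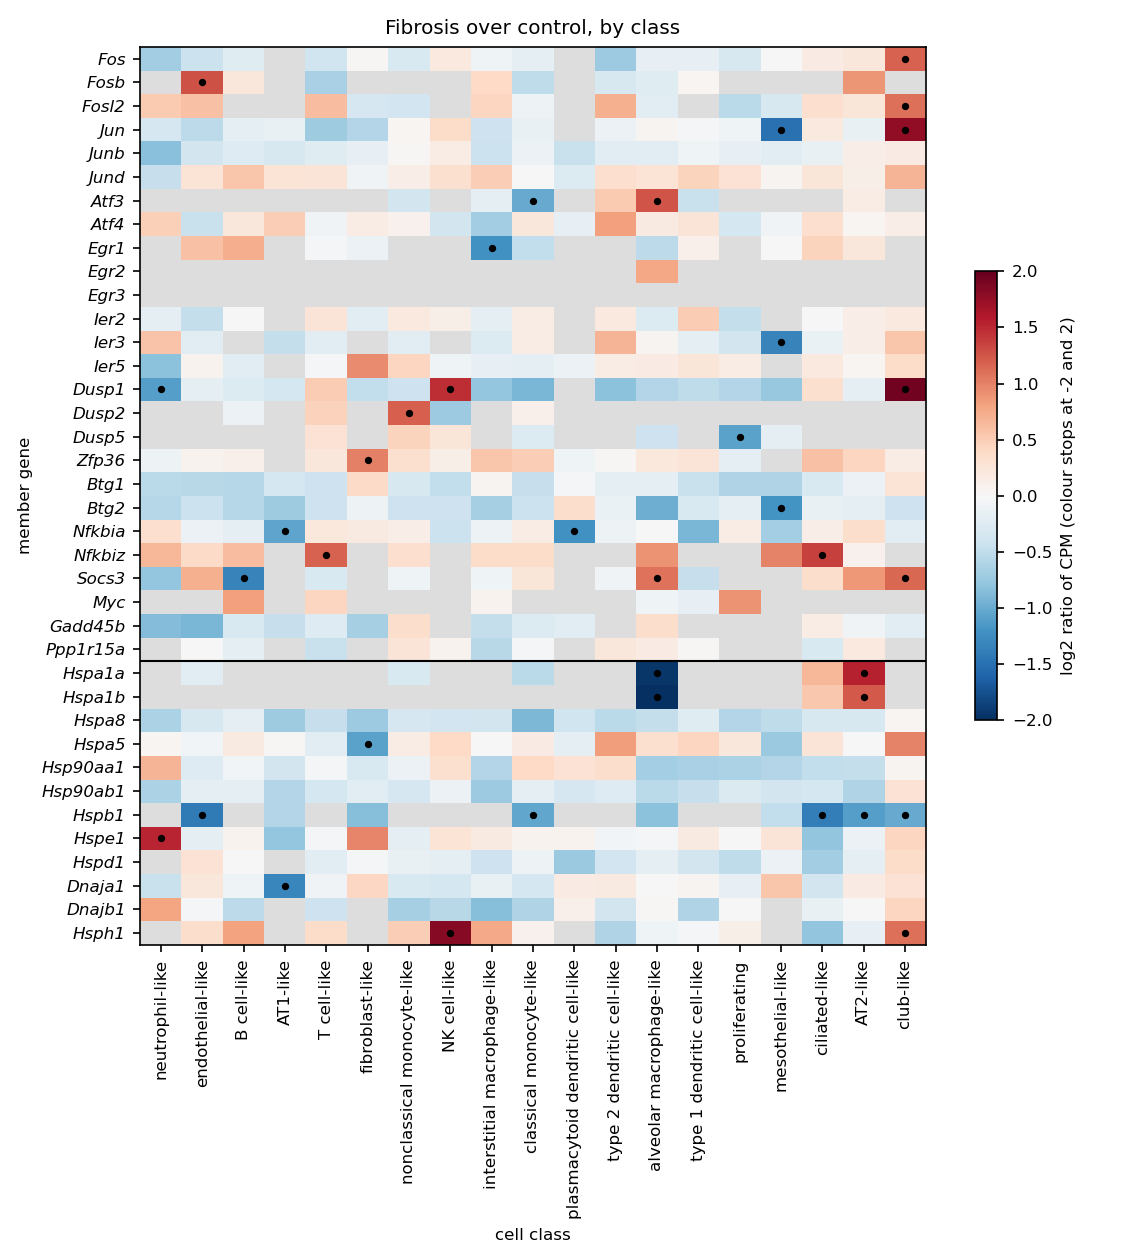
Log2 ratio of fibrosis to control CPM for each gene (rows) and cell class (columns), with red for higher and blue for lower in fibrosis and grey where both libraries together held under 30 UMIs. Hspb1 is blue in all 9 classes where it was compared, Hspa8, Hsp90ab1 and Btg2 in 18 of 19, and Nfkbiz is red in all 11.

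The AP-1 factors bind DNA as dimers of a FOS and a JUN protein or of JUN proteins with ATF partners. Fos itself was highest in neutrophil-like cells (671 CPM in control, 414 CPM in fibrosis) and classical monocyte-like cells (510.3 and 451 CPM), and was lowest in club-like cells in control (28.1 CPM), with a median over classes of 156 and 111 CPM. Its highest classes were myeloid, and classical monocyte-like cells gave 52.5% of the Fos UMIs of the control classes. Its ratio lay on the lower side in 12 of 17 classes, and club-like cells were the exception past 2-fold, at 28.1 and 63.7 CPM (log2 ratio 1.18, interval 0.44 to 2.00). Junb had its peak in neutrophil-like cells too, with 1598 CPM in control and 892 CPM in fibrosis, ahead of T cell-like cells in control (542 CPM, 458 CPM in fibrosis) and NK cell-like cells in fibrosis (561 CPM). Its lowest values were in mesothelial-like cells (64.0 and 55.4 CPM), its median was 418 and 325 CPM, and it was on the lower side in 15 of 19 classes without passing 2-fold in any.

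Jun did not share that pattern. Endothelial-like cells led with 1264 CPM in control and 879 CPM in fibrosis, ahead of fibroblast-like cells with 340 and 227 CPM. A Jun UMI was found in 70.3% of control (interval 64.9 to 75.4) and 61.9% of fibrosis endothelial-like cells (54.8 to 68.7) after thinning to 1000 UMIs, and in 88.1% and 89.8% without thinning, against 7.45% and 10.4% of neutrophil-like cells after thinning. Jun held 2 of the 6 most extreme ratios of the data. It was higher in fibrosis in club-like cells, from 14.1 to 48.2 CPM (9 and 65 UMIs, log2 ratio 1.78, interval 0.77 to 2.97), and lower in mesothelial-like cells, from 156 to 55.4 CPM (39 and 14 UMIs, log2 ratio -1.49, interval -2.49 to -0.58). Neither rested on a single cell: without the cell richest in Jun the values were 1.69 and -1.43. The mesothelial-like class had 33 and 31 cells.

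Jund, a JUN protein that is more constantly expressed, went the other way from Junb: it was higher in fibrosis in 15 of 19 classes, with a median log2 ratio of 0.27 and its largest value in B cell-like cells in the fibrosis library (359 CPM, against 244 CPM in control). Of the 799 genes compared in all 19 classes, 12.8% were higher in at least 16, a stricter rule that Jund did not meet. The larger or equal share higher in at least 15 was not computed. Fosb, Fosl2 and Atf3 were scarcer, with class medians between 7.66 and 38.8 CPM. Atf3, a stress-induced partner of JUN, was higher in alveolar macrophage-like cells, at 16.9 and 40.2 CPM (log2 ratio 1.25), and lower in classical monocyte-like cells, at 58.3 and 28.9 CPM (-1.01; -0.98 without its richest cell). The alveolar macrophage-like class joined 2 clusters in very different numbers: cluster 4 with 598 control and 548 fibrosis cells, and cluster 8, led by Mmp12 and Spp1, with 32 and 444 cells. Within cluster 4 Atf3 was 14.2 CPM in control and 8.94 CPM in fibrosis, and within cluster 8 it was 60.7 and 68.1 CPM, so neither cluster on its own was past 2-fold.

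The 3 EGR genes encode zinc-finger factors induced by growth signals. Egr1 was a fibroblast signal, at 251 CPM in control and 230.0 CPM in fibrosis, against 60.0 and 59.4 CPM in mesothelial-like cells, the next class in both libraries. After thinning, 20% of control and 18.9% of fibrosis fibroblast-like cells held an Egr1 UMI (62.2% and 47.2% without thinning). Interstitial macrophage-like cells were past 2-fold, from 38.9 to 16.7 CPM (log2 ratio -1.22, on 23 and 21 UMIs). Egr2, which alveolar macrophages are known to need for their identity, came mostly from alveolar macrophage-like cells: 77.9% of its control and 80% of its fibrosis UMIs lay there, at 30.9 and 52.7 CPM (log2 ratio 0.77), and it was compared in that class alone. Egr3, with 5 control and 1 fibrosis UMIs in all kept cells, was compared in no class.

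Among the other early genes, Btg1 was the most abundant immediate-early gene of all. It encodes an antiproliferative cofactor of mRNA deadenylation that keeps lymphocytes quiescent. Its level was 2134 CPM in control and 1443 CPM in fibrosis in B cell-like cells, 2098 and 1441 CPM in neutrophil-like cells and 1731 and 1301 CPM in T cell-like cells. Mesothelial-like cells were lowest with 144 and 95.04 CPM, and the median class had 592 and 521 CPM. Btg1 was on the lower side in 16 of 19 classes (9.14% of the 799 genes compared in all 19 classes were lower in at least 16), and its log2 ratio stayed between -0.60 and 0.39. Btg2, its p53-inducible paralogue, was lower in 18 of 19 classes, where 2.88% of the 799 genes were, with a median log2 ratio of -0.41. Its largest deficit was in mesothelial-like cells, from 436 to 190.1 CPM (log2 ratio -1.20), and plasmacytoid dendritic cell-like cells were the only class on the higher side, from 308 to 393 CPM.

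Ier3, a survival gene under NF-κB control, was highest in AT1-like cells: 1885 CPM in control and 1357 CPM in fibrosis, beside 438 and 380 CPM in endothelial-like cells and 8.85 and 9.56 CPM in B cell-like cells. A UMI was found in 72.4% of control (interval 52.8 to 87.3) and 69.7% of fibrosis AT1-like cells (51.3 to 84.4) after thinning, and in 96.6% and 93.9% without it. In B cell-like cells the thinned shares were 1.35% and 0.855%, with median depths of 1830 and 2499 UMIs against 4394 and 3614 UMIs in AT1-like cells. Ier2 was highest in neutrophil-like cells (512 and 450.3 CPM), and Ier5 in neutrophil-like cells in control (428 CPM) and in plasmacytoid dendritic cell-like cells in fibrosis (269 CPM); neither passed 2-fold in a class. Myc, the growth regulator, stayed at or below 39.4 CPM in every class, with 263 and 444 UMIs over all kept cells.

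**Figure D3:**
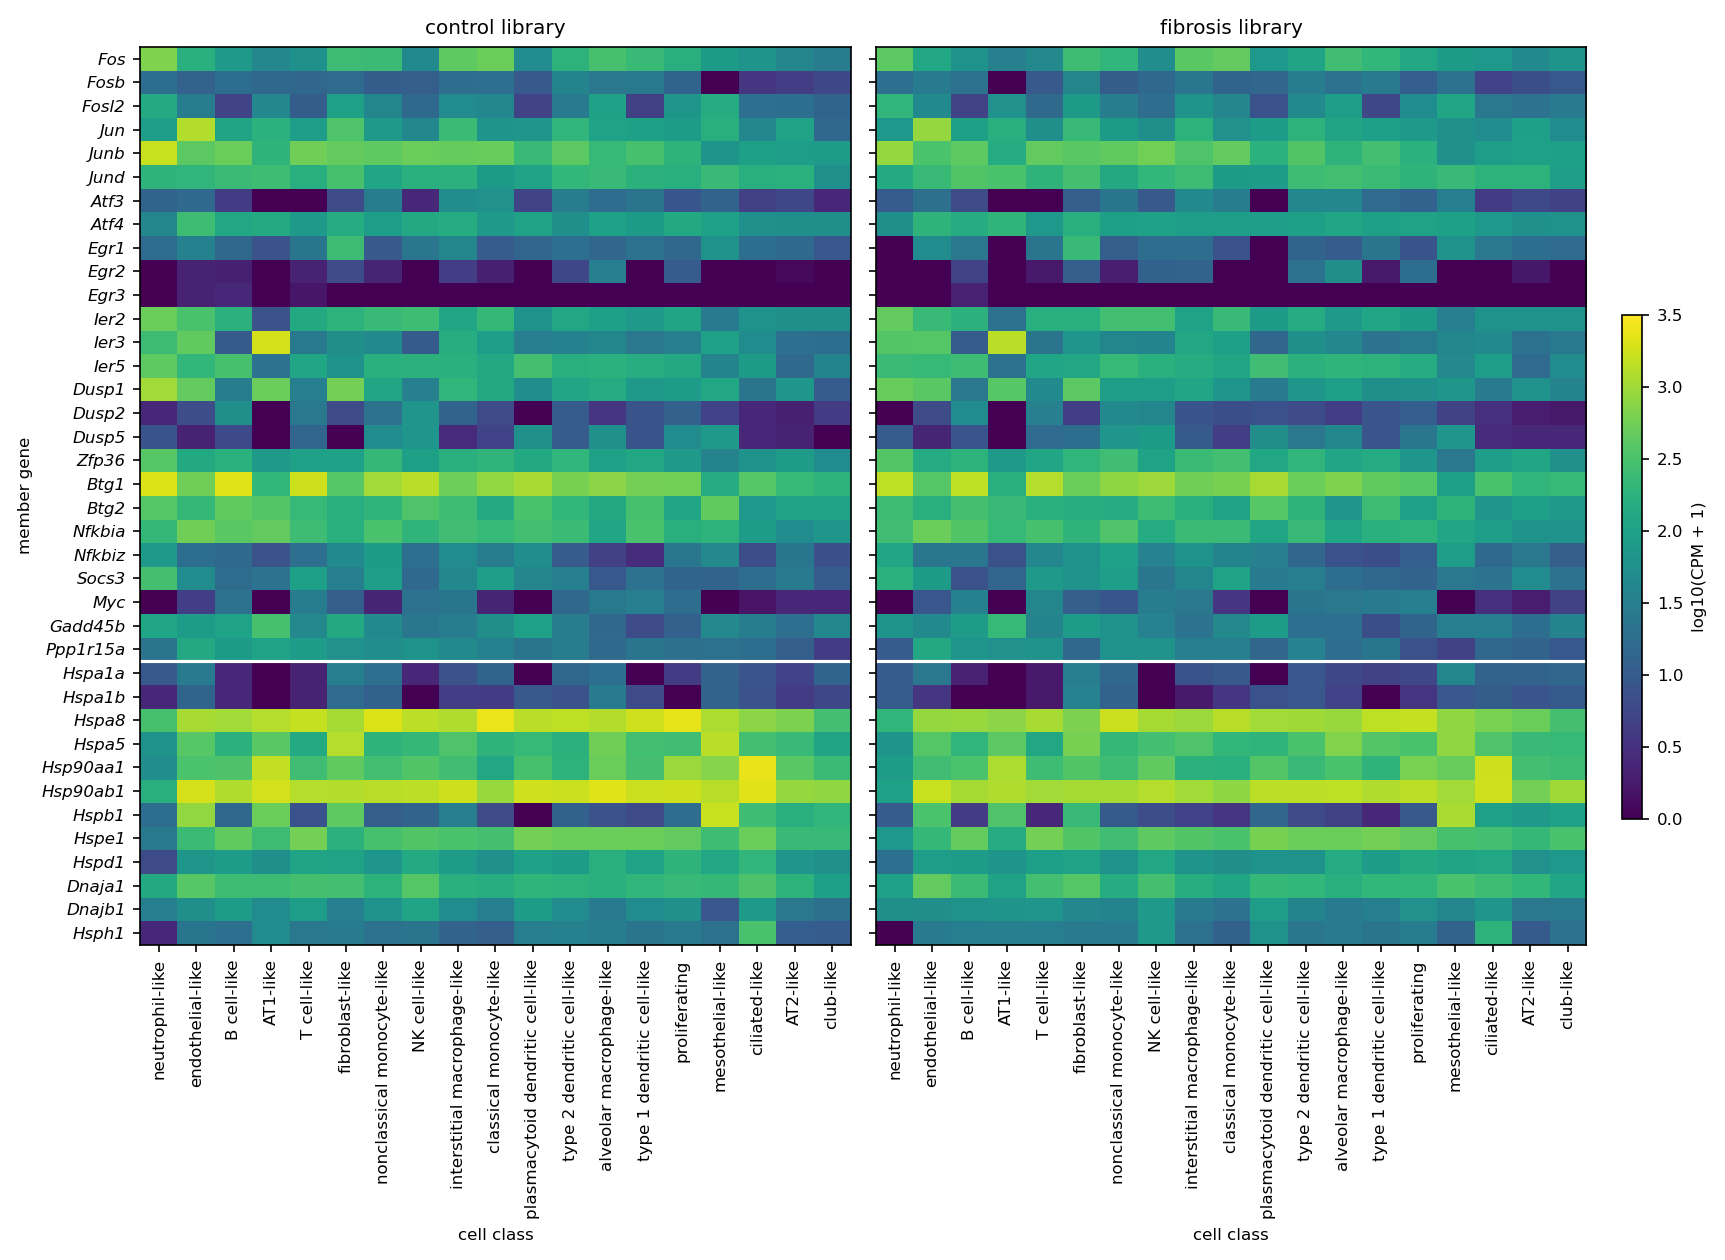
Level of each gene (rows) in each cell class (columns) in the control and the fibrosis library, on a log10 colour scale of CPM. Brighter colours stand for higher levels. Ier3 is brightest in AT1-like cells (1885 and 1357 CPM), Jun in endothelial-like cells (1264 and 879 CPM), and Hsph1 in ciliated-like cells (316 and 183 CPM).

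The feedback inhibitors took 13 of the 37 changed pairs, 8 higher and 5 lower of 90 compared, where 3.72% of the pairs of all genes were higher and 2.44% lower; the group was singled out after its counts were seen. Dusp1, the phosphatase that switches off p38 and JNK, was highest in neutrophil-like cells, at 1044 CPM in control and 486 CPM in fibrosis (log2 ratio -1.10, interval -1.52 to -0.71). Fibroblast-like cells followed with 580 and 412 CPM, and near them were AT1-like cells with 500.4 and 392 CPM and endothelial-like cells with 454 and 397 CPM. In all, Dusp1 was on the lower side in 14 of 18 classes, with a median log2 ratio of -0.45. In neutrophil-like cells 62% of control and 37.5% of fibrosis cells held a Dusp1 UMI after thinning (80.7% and 60.4% without), against 2.71% and 2.28% of B cell-like cells. Among all genes of neutrophil-like cells 13.9% were at least 2-fold lower in fibrosis, and Dusp1 was the only gene of the list to be so, of 24 compared. The largest rise of the data was also of Dusp1: from 9.36 to 35.6 CPM in club-like cells, on 6 and 48 UMIs (log2 ratio 1.93, interval 0.70 to 3.44). In NK cell-like cells Dusp1 went from 32.8 to 91.04 CPM, a class whose summed neutrophil markers, all 9 detected, stood at 777 CPM in control and 9764 CPM in fibrosis; the part of these in the Dusp1 rise was not tested.

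Dusp1: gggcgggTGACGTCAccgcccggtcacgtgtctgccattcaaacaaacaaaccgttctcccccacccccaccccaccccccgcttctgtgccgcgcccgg

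The 100 bases printed for Dusp1 end 51 bases before its RefSeq start site (chr17:26508523-26508622, GRCm38.p6, minus strand); the capitals are the palindrome TGACGTCA, the full cAMP response element, which also lies in the 250 bases before Btg2 and Ppp1r15a and in 1.62% of the 27025 RefSeq promoters searched on both strands. The variant TGACGTAA lies before Atf3 and Btg1 (0.477% of promoters), and the serum response CArG box before Zfp36 and Dusp5 (1.4%). Promoters were matched for 30 of the 38 genes.

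Nfkbia, which holds NF-κB in the cytoplasm, ranged in control from 48.6 CPM in AT2-like to 555 CPM in endothelial-like cells, and in fibrosis from 60.8 CPM in club-like to 512 CPM in endothelial-like cells. Its class median was 218 and 189 CPM. It was past 2-fold lower in plasmacytoid dendritic cell-like cells, from 274 to 118 CPM (log2 ratio -1.21), and in AT1-like cells, from 452 to 219 CPM (-1.05; -0.77 without its richest cell), and was on the higher side in 8 of 19 classes. The nuclear IκB family member Nfkbiz lay on the other side: it was higher in all 11 classes compared, as were 1.35% of the 5558 genes compared in at least 9 classes in all of theirs, with a median log2 ratio of 0.61 and values past 2-fold in T cell-like (17.8 to 40.2 CPM) and ciliated-like cells (5.73 to 14.8 CPM). Zfp36, which destabilises cytokine mRNAs, was higher in 14 of 17 classes with a median log2 ratio of 0.21, and reached 2-fold in fibroblast-like cells, from 99.2 to 199 CPM (0.96 without its richest cell). Socs3, an inhibitor of cytokine receptor signalling, was highest in neutrophil-like cells (291 and 171 CPM); it was past 2-fold higher in alveolar macrophage-like and club-like cells and lower in B cell-like cells, where 6 UMIs were left in fibrosis. Within cluster 4 of the alveolar macrophage-like cells its log2 ratio was 0.38 in place of 1.08. Dusp2 and Dusp5 stayed at or below 79.7 CPM.

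Of the genes of the integrated stress response and growth arrest, none of 45 pairs passed 2-fold. Atf4, its main transcription factor, was highest in endothelial-like cells in control (257 CPM) and in AT1-like cells in fibrosis (193 CPM), Gadd45b in AT1-like cells (302 and 219 CPM), and Ppp1r15a, the phosphatase subunit that ends the response, in endothelial-like cells (128 and 127 CPM). Their median log2 ratios were 0.14, -0.27 and 0.01.

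**Figure D4:**
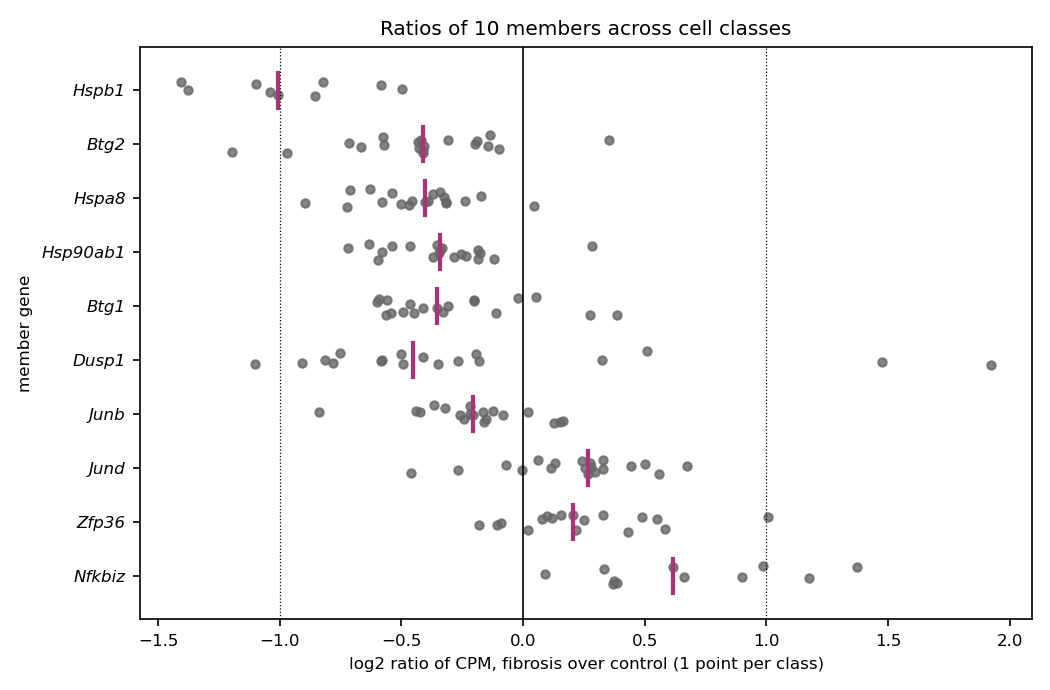
Log2 ratio of fibrosis to control for 10 genes, each point a cell class in which the gene had at least 30 UMIs over both libraries. Hspb1, Hspa8, Hsp90ab1 and Btg2 lie mostly below 0 and Nfkbiz above it, while Dusp1 runs from -1.10 to 1.93.

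The HSP70 proteins carry out most folding by chaperones. Hspa8, the constitutive cytosolic form, had 47223 UMIs in control, the most of the 38 genes there, and 29817 in fibrosis, where Hsp90ab1 had more (36773). It was highest in classical monocyte-like cells in control, at 2507 CPM against 1347 CPM in fibrosis (log2 ratio -0.90), then in proliferating cells (2356 and 1575 CPM) and nonclassical monocyte-like cells (2091 and 1650 CPM), with a class median of 1257 and 922 CPM. Club-like cells were lowest in control (286 CPM). In 18 of 19 classes it was lower in fibrosis, with a median log2 ratio of -0.40, and club-like cells were the exception (286 and 295 CPM). Of the 799 genes compared in all 19 classes, 2.88% were lower in at least 18. Processed pseudogenes of Hspa8, of the HSP90 genes and of Hspe1 may draw reads from them, and how far they did was not tested. Hspa5, the form of the endoplasmic reticulum, was on the higher side in 13 of 19 classes, with a median log2 ratio of 0.16. It was highest in mesothelial-like cells (1364 and 820 CPM). The next class was fibroblast-like cells in control (1285 CPM, against 611 CPM in fibrosis, log2 ratio -1.07; -0.98 without its richest cell) and alveolar macrophage-like cells in fibrosis (684 CPM).

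Hspa1a and Hspa1b, the strictly inducible HSP70 genes, were rare: 316 and 203 UMIs in the control and 355 and 203 UMIs in the fibrosis kept cells. Their class medians were 7.30 and 7.83 CPM for Hspa1a and 4.68 and 4.04 CPM for Hspa1b, and 6 and 7 of the 38 values by class and library were 0, where a count of 0 allows up to 3 UMIs. They lie on chromosome 17, and the 150 bases before their start sites (chr17:34972157-34972306 and chr17:34959239-34959388, GRCm38.p6, minus strand) were identical at 149 positions (99.3%); the capitals mark GAANNTTC, 2 heat shock units in opposite directions.

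Hspa1a: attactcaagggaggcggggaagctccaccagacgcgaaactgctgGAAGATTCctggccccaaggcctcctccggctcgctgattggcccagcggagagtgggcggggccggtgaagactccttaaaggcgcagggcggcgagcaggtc

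Hspa1b: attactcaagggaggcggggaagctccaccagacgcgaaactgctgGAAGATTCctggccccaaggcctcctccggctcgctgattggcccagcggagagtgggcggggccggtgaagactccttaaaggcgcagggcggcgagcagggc

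The last 500 stretches of 91 bases of their transcripts share no stretch, although 49.1% of the Hspa1a stretches occur in Hspa1b, so 3′ reads can be told apart near the transcript end but not everywhere. The largest fall of the data was of Hspa1b in alveolar macrophage-like cells, from 27.0 to 4.04 CPM (83 and 23 UMIs, log2 ratio -2.74), and the next of Hspa1a there, from 18.2 to 4.74 CPM (56 and 27 UMIs, log2 ratio -1.94). Both rested on a single control cell of cluster 8, which held 73 Hspa1b and 45 Hspa1a UMIs among its 5882 UMIs, together with 16 of Hsph1. Without that cell the log2 ratios were 0.31 and 0.40. In AT2-like cells Hspa1a went from 4.14 to 12.03 CPM (24 and 104 UMIs, log2 ratio 1.54) and Hspa1b from 3.11 to 7.29 CPM (18 and 63 UMIs, 1.23); the richest fibrosis cell held 40 Hspa1a and 19 Hspa1b UMIs in turn, and the ratios were 0.84 and 0.71 without the richest cell of each gene.

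The HSP90 proteins hold kinases and receptors in a state ready to be activated. Hsp90ab1, the constitutive form, was highest in ciliated-like cells, at 2234 CPM in control and 1758 CPM in fibrosis, then in control in alveolar macrophage-like cells (2114 and 1457 CPM); neutrophil-like cells were lowest with 154 and 99.1 CPM, and the class median was 1416 and 1071 CPM. Like Hspa8 it was lower in 18 of 19 classes, with a median log2 ratio of -0.34, from -0.72 in interstitial macrophage-like to 0.29 in club-like cells. Hsp90aa1, the inducible form, depended more on the class: 2455 and 1736 CPM in ciliated-like cells and 1501 and 1164 CPM in AT1-like cells, against a class median of 318 and 285 CPM and 50.7 and 81.1 CPM in neutrophil-like cells. It was on the lower side in 13 of 19 classes, and its log2 ratio ran from -0.68 in alveolar macrophage-like to 0.68 in neutrophil-like cells. The neutrophil-like value rested on few UMIs: in the 48 fibrosis cells all 12 heat shock genes together held 79. Hsp90aa1 stood at 0.253 times Hsp90ab1 in the median control class but above it in ciliated-like cells of the control library.

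Hspb1 (HSP27), the small heat shock protein that binds unfolding proteins and actin, was the only listed gene changed at least 2-fold in 5 classes. Its level marked mesothelial-like cells (1588 CPM in control, 1125 CPM in fibrosis), endothelial-like cells (860.3 and 325 CPM), AT1-like cells (521 and 347 CPM) and fibroblast-like cells (428 and 237 CPM). Ciliated-like cells had 257 and 98.9 CPM, club-like cells 201 and 100 CPM and AT2-like cells 158 and 73.8 CPM, whereas the leukocyte classes lay between 0 and 30.4 CPM in control. It was thus a gene of structural cells, and it was lower in fibrosis in all 9 classes where it was compared, as were 0.846% of the 5558 genes compared in at least 9 classes in all of theirs. The log2 ratios past 2-fold were -1.41 in endothelial-like (interval -1.62 to -1.20), -1.38 in ciliated-like (-1.61 to -1.15), -1.10 in AT2-like (-1.25 to -0.95), -1.01 in club-like (-1.37 to -0.65) and -1.04 in classical monocyte-like cells, the last on 42 and 4 UMIs with an interval of -2.98 to 0.42. Leaving out the richest cell moved the club-like value to -0.91 and the classical monocyte-like value to -0.97. After thinning, 43.9% of control (38.3 to 49.6) and 27.9% of fibrosis endothelial-like cells (21.8 to 34.7) held an Hspb1 UMI, and 61% and 47.2% without thinning; in T cell-like cells the thinned shares were 0.346% and 0.205%. The median depths were 2258 and 2912 UMIs in endothelial-like and 2684 and 2680 UMIs in T cell-like cells. The endothelial-like class joined several clusters in unlike shares. The largest, cluster 15, held 150 of the 310 control and 60 of the 197 fibrosis cells. It held 653 of the 754 control and 153 of the 247 fibrosis Hspb1 UMIs of the class. Within this cluster Hspb1 was 1976 CPM in control and 953 CPM in fibrosis (log2 ratio -1.05). The part of the cluster shares in the class ratio was not tested. Endothelial-like cells also held neutrophil markers, all 9 detected, at 16131 CPM in control and 1808 CPM in fibrosis; their part in the difference was not tested.

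Hspb1 has 2 copies of GAANNTTC, in capitals, in the 150 bases before its start site (chr5:135887769-135887918, GRCm38.p6, plus strand).

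Hspb1: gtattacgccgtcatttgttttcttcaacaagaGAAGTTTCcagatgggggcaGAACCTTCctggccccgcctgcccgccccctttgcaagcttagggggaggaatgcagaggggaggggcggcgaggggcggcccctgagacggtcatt

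The same 8 letters occur in the 250 bases before 5 of 9 matched heat shock genes (Hspe1, Dnaja1, Hspb1, Hspa1a and Hspa1b), 2 of 21 matched immediate-early genes (Jun and Fosl2) and 6.78% of all promoters. The reverse pair TTCNNGAA, which can overlap it, lies before Hspe1 and Hsph1 and in 7.1% of promoters. A run of 3 alternating heat shock units, in which both pairs overlap, was found before Hspe1 alone of the matched genes, and in 0.4% of promoters. The stretches that hold these pairs are shown for Hspe1 (chr1:55088053-55088082, plus strand) and Hsph1 (chr5:149636351-149636380, minus strand), with the motifs in capitals.

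Hspe1: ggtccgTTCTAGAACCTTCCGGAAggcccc

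Hsph1: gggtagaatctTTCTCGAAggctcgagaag

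Hspe1 and Hspd1 encode the HSP10 lid and the HSP60 barrel of the mitochondrial chaperonin. Hspe1 was highest in T cell-like cells in control (595 CPM, against 579 CPM in fibrosis) and in plasmacytoid dendritic cell-like cells in fibrosis (610 CPM, against 577 CPM in control), lowest in neutrophil-like cells (24.96 and 72.05 CPM), and had a class median of 311 and 350.2 CPM. It was the least shifted of the abundant heat shock genes, on the higher side in 10 and the lower side in 9 of 19 classes, with a median log2 ratio of 0.07. The neutrophil-like value, a log2 ratio of 1.53, rested on 32 and 8 UMIs, and ciliated-like cells lay at the other end, from 494 to 287 CPM (-0.79). Hspd1, at class medians of 86.2 and 82.5 CPM, was on the lower side in 14 of 17 classes, with a median log2 ratio of -0.18.

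The J-domain proteins Dnaja1 and Dnajb1 hand clients to HSP70. Dnaja1 was highest in endothelial-like cells (393 and 461 CPM) and passed 2-fold in AT1-like cells only, from 254 to 103 CPM (log2 ratio -1.30, on 37 and 16 UMIs). Dnajb1, the inducible member, had class medians of 48.0 and 41.2 CPM, was on the lower side in 10 of 16 classes and never passed 2-fold. Hsph1 (HSP110), which exchanges the nucleotide of HSP70, was bound to ciliated-like cells, at 316 CPM in control and 183 CPM in fibrosis, against class medians of 21.3 and 26.9 CPM; 57.5% of its control and 44.3% of its fibrosis UMIs came from that class. In ciliated-like cells 34.4% of control (26.2 to 43.3) and 16.3% of fibrosis cells (10.6 to 23.5) held a UMI after thinning, and 89.8% and 82.3% without, whereas 0 of 644 control neutrophil-like cells did after thinning (which allows a share of up to 0.466%), with a median depth of 1813 UMIs against 6978. The second largest rise, between those of Dusp1 and Jun in club-like cells, was that of Hsph1 in NK cell-like cells, from 20.9 to 74.0 CPM on 14 and 26 UMIs (log2 ratio 1.83, interval 0.84 to 2.88; 1.60 without its richest cell).

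The ciliated-like class was not uniform. With finer clustering (resolution 2 in place of 1), 74 control and 73 fibrosis of its cells stayed in a ciliated cluster, and 54 and 68 cells, which held ciliated markers but drew 43.4% and 33.3% of their UMIs from the club-cell secretory gene Scgb1a1, went to a club cluster. The median depth of the former was 5366 and 5993 UMIs and of the latter 26018 and 26065 UMIs. In the cells that stayed ciliated the heat shock sum was 14259 CPM in control and 10020 CPM in fibrosis (log2 ratio -0.51), nearly 2 times the value of the whole class. There Hsp90aa1 had 5378 and 3791 CPM, Hsp90ab1 3969 and 2997 CPM, Hspa8 1553 and 1069 CPM, Hspe1 854 and 409 CPM (log2 ratio -1.06), Hsph1 626 and 342 CPM (-0.87), and Hspb1 295 and 114 CPM (-1.37). Hspa5 and Dnajb1 did not share this direction, with 427 and 506 CPM and 132 and 153 CPM, and intervals of the ratio that held 0. The immediate-early sum of the same cells was lower in fibrosis, at 1911 and 1672 CPM (log2 ratio -0.19), unlike that of the whole class. In the cells that went to the club cluster the heat shock sum was also lower, at 5169 and 4206 CPM (-0.30), but the immediate-early sum was higher in fibrosis, at 1145 and 1299 CPM (log2 ratio 0.18, interval 0.09 to 0.27).

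**Figure D5:**
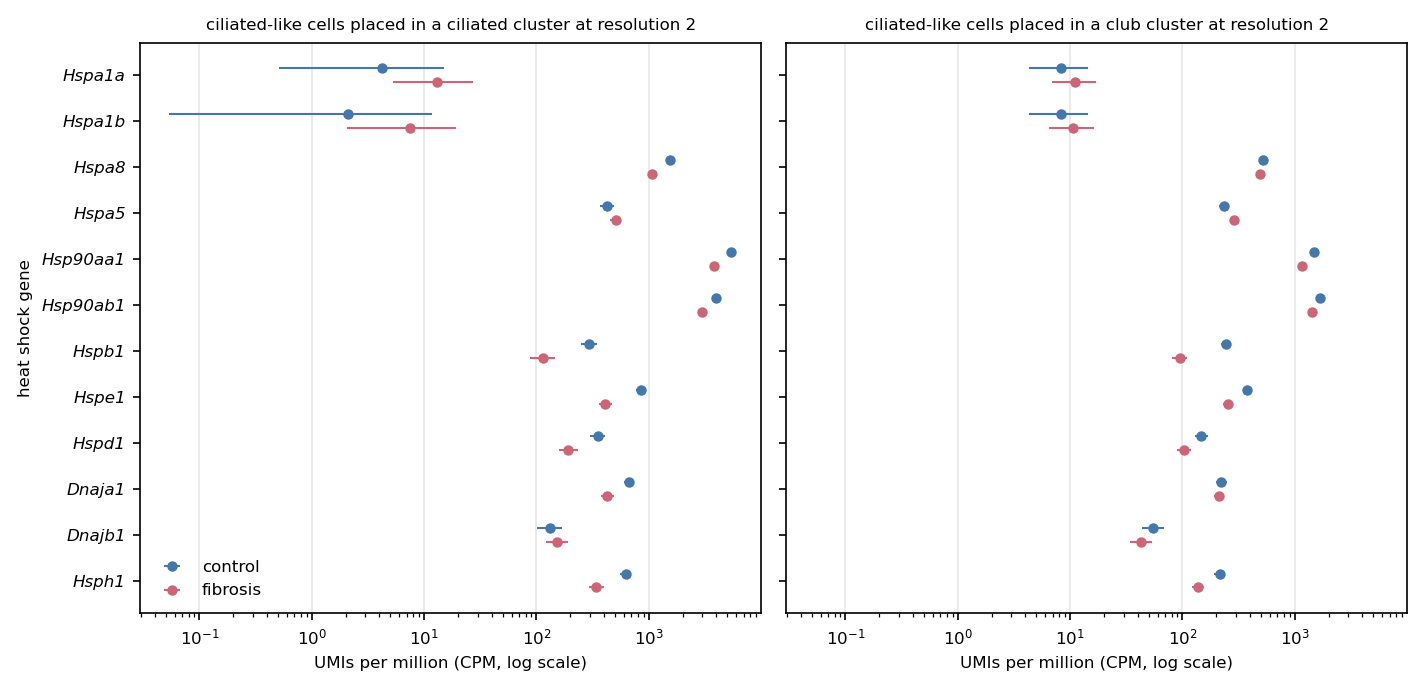
CPM (log scale) of the 12 heat shock genes in the ciliated-like cells that finer clustering kept as ciliated (left) and in those it placed with club cells (right), with exact Poisson 95% intervals. In the left panel Hsp90aa1 reaches 5378 and 3791 CPM and Hspb1 295 and 114 CPM in control and fibrosis, and the Hspa1a and Hspa1b intervals are wide.

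Club-like cells were the class with the most changed genes of the list, 6 higher and 1 lower of 26, where 16.1% of all genes of the class were higher and 0.74% lower. The 6 were Dusp1, Jun, Fos, Socs3, Fosl2 and Hsph1, and the lower gene was Hspb1; for Socs3, Fosl2 and Hsph1 the interval held 0. The whole class was shifted, with a median log2 ratio over all genes of 0.43, against values between -0.17 (neutrophil-like) and 0.14 (ciliated-like) in the other 18 classes. Scgb1a1 took 55.7% of the class UMIs in control and 41.6% in fibrosis. With Scgb1a1 left out of the class total, an option added after the values were seen, the immediate-early sum was 1919 and 1841 CPM (log2 ratio -0.06, interval -0.20 to 0.09) and the heat shock sum 4699 and 4162 CPM (-0.18), while the log2 ratios were 1.53 for Dusp1 and 1.38 for Jun, 0.79 for Fos, which was then within 2-fold, and -1.41 for Hspb1. The class held 44 control and 93 fibrosis cells and joined clusters 24 and 40, whose sums went opposite ways. In cluster 24 (38 and 70 cells) the heat shock sum was 2003 and 2615 CPM and the immediate-early sum 765 and 1106 CPM. In cluster 40 (6 and 23 cells) the heat shock sum was 2672 and 1557 CPM and the immediate-early sum 1472 and 926 CPM.

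Other genes of the same pathways were read from companion lists, whose counts stand beside the 3.72% higher and 2.44% lower among the pairs of all genes. Of 38 further early genes, 25 of 398 pairs were at least 2-fold higher (6.28%) and 11 lower (2.76%), and their sum was higher in fibrosis in 13 of 19 classes with a median log2 ratio of 0.06, unlike that of the 26 genes above. Among the 4 with the most UMIs, Mcl1, an anti-apoptotic BCL2 relative, had a median log2 ratio of 0.21, Id2, a repressor of helix-loop-helix factors, 0.13, Zfp36l1, an mRNA-destabilising relative of Zfp36, 0.22, and its relative Zfp36l2 0.06. Of 35 further chaperones and related genes, 2 of 497 pairs were higher and 5 lower, and their sum was lower in 17 of 19 classes with a median log2 ratio of -0.11; among those with the most UMIs, Ubb, a stress-inducible polyubiquitin gene, had -0.13, the HSP70 cofactor St13 -0.07, and Hsp90b1, the HSP90 of the endoplasmic reticulum, 0.19. Of 18 genes of the unfolded protein and integrated stress responses, 4 of 227 pairs were higher and 4 lower, with 9 sums higher and 10 lower (median log2 ratio -0.04); the calnexin-cycle genes Calr, Canx and Pdia3 had -0.24, 0.27 and 0.17, and the disulphide isomerase gene Pdia6 -0.08.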

How the data were processed

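Per the submitters' processing notes, reads were handled with bcl2fastq and Cell Ranger 1.3 against mm10; the authors deposited the resulting UMI counts per gene and cell, raw and not normalized, for 1 control and 1 fibrosis library. Here cells with at least 200 genes and at most 10% mitochondrial UMIs were kept. Doublet score thresholds marked 13 control and 168 fibrosis cells, so the expected share (515 and 386 cells) was removed by score instead. Cells were clustered jointly (scanpy 1.11.5, 2000 variable genes, 30 components, Leiden resolution 1) without the 38 genes and their companions. Of 43 clusters 32 were named from markers (216 of 223 marker symbols, the other 7 not used here) and 11 were held out as mixed. A cell counted for a class with UMIs of at least 2 of its markers, and a class with at least 25 such cells per library. UMIs were summed per class and scaled to CPM. Poisson (CPM), binomial (shares) and conditional binomial (ratios) intervals are exact, at 95%, and cover counting error only. The scripts were tested on simulated data.

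Full values are given for the 4 immediate-early and 4 heat shock genes with the most UMIs, for genes past 2-fold in 1 direction in at least 5 classes and for the 3 largest rises and falls; other genes singled out were chosen after their values were seen. Of each companion list the 4 genes with the most UMIs are named, except 1 that is not reported here. The members and lists were chosen with earlier results of these data known. After first clusters were seen, neutrophils were made a lineage of their own, and after results had been viewed numerical rounding was changed for reproducibility, which shifted clusters slightly. Cluster 17 (32 control and 166 fibrosis cells with AT2 markers) was kept out of AT2-like cells because a marker of another class, and none of AT2, was among its leading genes. Motifs were searched in RefSeq promoters (GRCm38.p6), 250 bases upstream, on both strands. Alternatives covered doublets, mitochondrial share, UMI floors, thinning, resolution, gating, scaling and the fold threshold.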

Additional observations from a re-analysis of the deposited data

Results flagged for a closer look

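For 6 genes a rise past 2-fold in a class stood beside a fall past 2-fold in another, with 1 library per group, so that no difference between classes was tested. Jun was higher in club-like and lower in mesothelial-like cells, and the log2 ratios differed by 3.27. Dusp1 was higher in club-like and lower in neutrophil-like cells, a difference of 3.03. Atf3 was higher in alveolar macrophage-like and lower in classical monocyte-like cells, a difference of 2.26, and within the largest alveolar macrophage cluster its ratio was -0.66. Socs3 was higher in alveolar macrophage-like and lower in B cell-like cells, a difference of 2.42. Hspa1a and Hspa1b were higher in AT2-like and lower in alveolar macrophage-like cells, by differences of 3.48 and 3.97; without the richest cell of each gene the AT2-like ratios were 0.84 and 0.71 and the alveolar macrophage-like ratios 0.40 and 0.31.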

How the results depend on the processing

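No paired analysis was possible because each group is 1 library from 1 mouse. The median log2 ratio over classes stayed between -0.15 and -0.08 for the immediate-early sum and between -0.34 and -0.26 for the heat shock sum under every alternative run. Of 521 pairs of a listed gene and a class, 18 were higher and 19 lower. A 1.5-fold threshold gave 45 and 65 (8.64% and 12.5%, against 10.9% and 8.88% over all genes). A minimum of 10 UMIs gave 31 and 29 of 622 pairs (4.98% and 4.66%, against 7.91% and 5.13%). A minimum of 100 UMIs gave 4 and 10 of 381 pairs (1.05% and 2.62%, against 1.86% and 1.03%). Thinning to 1000 UMIs gave 5 and 17 of 332 pairs (1.51% and 5.12%, against 3.09% and 3.40%). Ratios taken minus the class median gave 16 and 17 (3.07% and 3.26%, against 3.48% and 2.32%). Depth limits these pairs: 14 of the higher and 9 of the lower rested on under 100 UMIs.

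Some values changed sign, and beyond the cells and scaling named the cause was not tested. In club-like cells the heat shock sum (0.22) was -0.019 with cells assigned singly from markers, -0.056 after thinning, -0.21 minus the class median and -0.28 at resolution 2, and the immediate-early sum (0.34) was -0.10 minus the class median. In NK cell-like cells the immediate-early sum (-0.12) was 0.067 without Btg1. In alveolar macrophage-like cells Atf3 was -0.66 and Hspa1b 0.37 within the largest cluster, and Hspa1a and Hspa1b were 0.40 and 0.31 both without cells of at least 20 of their UMIs and without the richest cell. The Hspa1a median over classes (-0.26) was 0.025 at 10 UMIs, 0.50 at 100 UMIs, 3.20 after thinning (1 class) and 0.10 without those cells; that of Hspa1b (0.55) was -2.74 at 100 UMIs and -0.57 with cells assigned singly. A change of sign was counted below only for values whose main limits left out 0. Sign changes of other values are not in these counts. An example is the ciliated-like immediate-early sum, 0.048 in the main setting and -0.092 minus the class median. Under the alternatives 25 of 443 medians by gene moved beyond their limits and 6 were counted as changing sign. Of 490 sums by class 60 moved and 6 were so counted, and of 448 values of changed pairs 22 and 6. The class highest in heat shock genes was ciliated-like except with at most 5% mitochondrial UMIs.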

Other observations

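Cells outside the 19 classes carried the same genes. Cells removed for over 10% mitochondrial UMIs (254 control and 228 fibrosis) had immediate-early sums of 2446 and 2141 CPM and heat shock sums of 4317 and 3515 CPM, against 3157 and 2293 CPM and 4230 and 3496 CPM in the 19 classes together. Cells removed by doublet score had 3601 and 2521 CPM and 4080 and 3493 CPM. Cluster 35, whose cells held smooth muscle genes beside erythrocyte genes (31 control and 15 fibrosis cells), had immediate-early sums of 6946 and 3834 CPM and heat shock sums of 2310.2 and 4901 CPM. Cluster 17, with AT2 markers, had immediate-early sums of 1759 and 1505 CPM and heat shock sums of 4083 and 2666 CPM, both above the 1196 and 1260 CPM and the 2859 and 2239 CPM of AT2-like cells. Cluster 13, with innate lymphoid markers, had 3916 and 3861 CPM and 4525 and 4560 CPM.

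Among the companion genes Bhlhe40, a repressor known from cytokine-stimulated macrophages and T cells, was at least 2-fold higher in fibrosis in 7 of 13 compared classes. Its median log2 ratio was 1.00. Over the gene and class pairs of all genes 3.72% were at least 2-fold higher. The share of all genes higher in as many classes was not computed, and Bhlhe40 was singled out after its values were seen.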
